A study of Mus musculus with 2 samples.

Results

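Fos, Fosb, Fosl2, Jun, Junb, Jund, Egr1, Egr2, Egr3 and Atf3 are immediate early genes that encode transcription factors, and their mRNA was followed here in single retinal cells of wild-type (WT) and mtDNA mutant mice. The 10 genes were taken by symbol from the 32285 genes of the count matrices. They were chosen by values measured in these same 2 libraries, their UMI levels between the libraries and between cell types, so every level and ratio of theirs is a description and carries no test. Retina of male C57BL/6J mice at 7 months of age was profiled by droplet scRNA-Seq, with 1 WT library and 1 library of mice labelled ND6 and carrying the P25L change in the mtDNA-encoded complex I subunit ND6, a model of Leber hereditary optic neuropathy in which the mutation is homoplasmic in the whole body. Both libraries came from retina digested to single cells with papain and an enzyme that the labels spell Tyrisin (probably trypsin), and the number of mice behind each library was not given in the sources used here.

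Immediate early genes are switched on within minutes of a stimulus, without new protein synthesis, when kinases of the MAPK and cAMP pathways activate factors such as SRF, ELK1 and CREB already bound at their promoters. Fos and Jun proteins pair through leucine zippers to form the AP-1 factor, Egr proteins bind GC-rich DNA through zinc fingers, and Atf3 is a stress-induced relative of the CREB and Jun factors. In retina they are known to respond to light, injury and inflammation. Their mRNA is short-lived, and they are also known to be induced in cells that are separated from tissue. The labels describe the digestion in the same words for both libraries and give no time or temperature. The part of tissue handling in the levels below was not tested, and with 1 library for each genotype, the genotype and anything else that differed between the 2 preparations cannot be told apart.

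The genes lie apart in the mouse genome (GENCODE M21, GRCm38). Fos is at chr12:85473890-85477273, Fosb at chr7:19302696-19310051, Fosl2 at chr5:32135801-32157842, Jun at chr4:95049034-95052222, Junb at chr8:84974484-84978718 and Jund at chr8:70698949-70700616. Egr2 is at chr10:67535475-67542188, Egr3 at chr14:70077203-70082614 and Atf3 at chr1:191170296-191218039. RefSeq promoter sequence (GRCm38.p6) was at hand for 8 of the 10 genes. The 250 bases before the RefSeq start are shown for Fos, Fosb and Junb, as examples with 1 listed start near the gene's annotated start and with motif matches. The first is chr12:85473640-85473889 on the plus strand, the second chr7:19310046-19310295 on the minus strand and the third chr8:84978749-84978998 on the minus strand. Capitals mark the CREB-site core TGACG, the TATA box TATAAA on the gene's strand and the Egr motif GCGNGGGCG, with the first and the last searched on both strands.
Fos: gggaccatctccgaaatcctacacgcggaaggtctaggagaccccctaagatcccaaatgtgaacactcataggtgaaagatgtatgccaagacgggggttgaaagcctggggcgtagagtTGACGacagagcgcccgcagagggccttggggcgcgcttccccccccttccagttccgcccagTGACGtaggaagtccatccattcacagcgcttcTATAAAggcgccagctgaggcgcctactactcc
Fosb: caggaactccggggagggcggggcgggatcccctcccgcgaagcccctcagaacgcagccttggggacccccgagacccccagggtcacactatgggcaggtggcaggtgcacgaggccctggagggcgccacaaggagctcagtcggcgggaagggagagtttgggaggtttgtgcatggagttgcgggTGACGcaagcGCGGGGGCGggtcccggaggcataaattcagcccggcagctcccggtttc
Junb: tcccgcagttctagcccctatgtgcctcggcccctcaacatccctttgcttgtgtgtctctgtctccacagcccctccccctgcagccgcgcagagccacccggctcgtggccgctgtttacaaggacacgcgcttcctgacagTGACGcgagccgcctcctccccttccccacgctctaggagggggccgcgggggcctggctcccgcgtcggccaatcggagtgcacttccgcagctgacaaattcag
The core TGACG stood at -129 to -125 and at -66 to -62 before the start of Fos, at -60 to -56 in Fosb and at -106 to -102 in Junb. It is a common word, held by 17.8% of 32851 mouse promoter windows of the same length. TATAAA, at -33 to -28 in Fos, was in 7.59% of them, and the Egr motif, at -50 to -42 in Fosb, was in 4.70% and was also found before Fosl2. The full CREB site TGACGTCA (1.55% of windows), which contains the core, and the AP-1 site TGANTCA (6.75%) were in none of the windows of these 8 genes, and the CArG box to which SRF binds (1.47%) was found before 4 of 5 listed starts of Egr2 alone. The core was also found before 3 of 5 listed starts of Egr2 and, at -7 to -3, before Atf3. The windows of those 3 Egr2 starts overlap and share the same core matches and the same CArG box, so a count of starts is not a count of separate sites. The RefSeq windows of Jund, Fosl2 and Atf3 do not abut the GENCODE gene starts, so the search says nothing of other starts of these genes. That of Jund ends at 70697738, before a gene that starts at 70698949, and those of Fosl2 and Atf3 lie inside the gene. The 4 Egr2 windows with a match also lie inside their gene. It starts at 67535475, and the first of these windows starts at 67537316. For all 8 genes, Fos and Jun among them, sites further than 250 bases before a start were not searched. Sites that differ from the motif by a letter were not searched either. The absence of a match thus does not show that a gene lacks such a site. A match is a description of letters, not of a bound site.

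A barcode counted as a cell when it held over 400 UMIs and over 200 genes and no more than 20% of its UMIs were mtDNA-encoded. This left 12529 cells in the WT library, of median depth 1878 UMIs, and 18395 in the mutant library, of median depth 1416, after the mtDNA limit had taken out 10647 and 3861 barcodes. The libraries shared 59 cell barcodes, 0.471% of WT and 0.321% of mutant cells. Clusters were named from marker genes into 7 classes called rod-, cone-, bipolar-, amacrine-, Müller-, microglia- and RPE-like (RPE is the retinal pigment epithelium), and none was named for ganglion or horizontal cells. The 10 genes were left out of the clustering. Levels are in CPM, a gene's UMIs per 1000000 UMIs of the summed cells. With 1 library per genotype, no test was possible, and the 95% intervals given (in parentheses) cover counting error alone. A gene was called lower or higher where the libraries differed by at least 1.5-fold, the interval left out a ratio of 1 and at least 20 UMIs were counted over both.

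Over all cells, the 10 genes together made up 1313 CPM of the WT library (71583 UMIs) and 431 CPM of the mutant library (27111 UMIs). The summed level was 3.05-fold (3.01 to 3.09) higher in WT. Of the 10 genes, 9 were called lower in the mutant library and 0 higher, where 5.78% of the 15888 genes with at least 20 UMIs were called lower and 16.1% higher. The rule for choosing the genes used this contrast, so the count stands as a description. Their median log2 ratio of mutant over WT was -1.90, beside 0.07 over all 15888 genes.

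Among the Fos family, whose members need a Jun partner to bind DNA, Fos was at 395 CPM in WT and 97.2 CPM in the mutant library, a 4.07-fold (3.95 to 4.18) difference. Fosb, which also encodes a long-lived shortened form in neurons, was at 71.1 and 11.6 CPM, 6.13-fold (5.67 to 6.65) higher in WT. Fosl2, which encodes the Fra-2 protein, was counted with 66 UMIs in WT and 21 in the mutant library, so its 3.63-fold difference was the least precise of the 3 (2.19 to 6.24).

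In the Jun family the differences were smaller. Jun, the family member that JNK kinases activate, was at 129 CPM in WT and 62.0 CPM in the mutant library (2.07-fold, 1.99 to 2.16). Junb, often an antagonist of Jun, was at 103 and 34.7 CPM (2.97-fold, 2.82 to 3.12). Jund, which most cells express without a stimulus, was at 209 and 143 CPM. Its 1.46-fold difference lay just under the limit of 1.5-fold, and it was the 1 gene of the 10 not called.

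Egr1, the factor also known as Zif268, was at 337 CPM in WT and 64.0 CPM in the mutant library (5.26-fold, 5.09 to 5.45). Egr3, a related factor that Egr1-inducing signals also switch on, was counted with 308 and 57 UMIs (6.24-fold, 4.69 to 8.43), and Egr2, a regulator of myelination and of myeloid cells, with 96 and 30 UMIs (3.69-fold, 2.43 to 5.77). Atf3 was at 60.1 and 15.9 CPM (3.77-fold, 3.51 to 4.05).

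**Figure D1:**
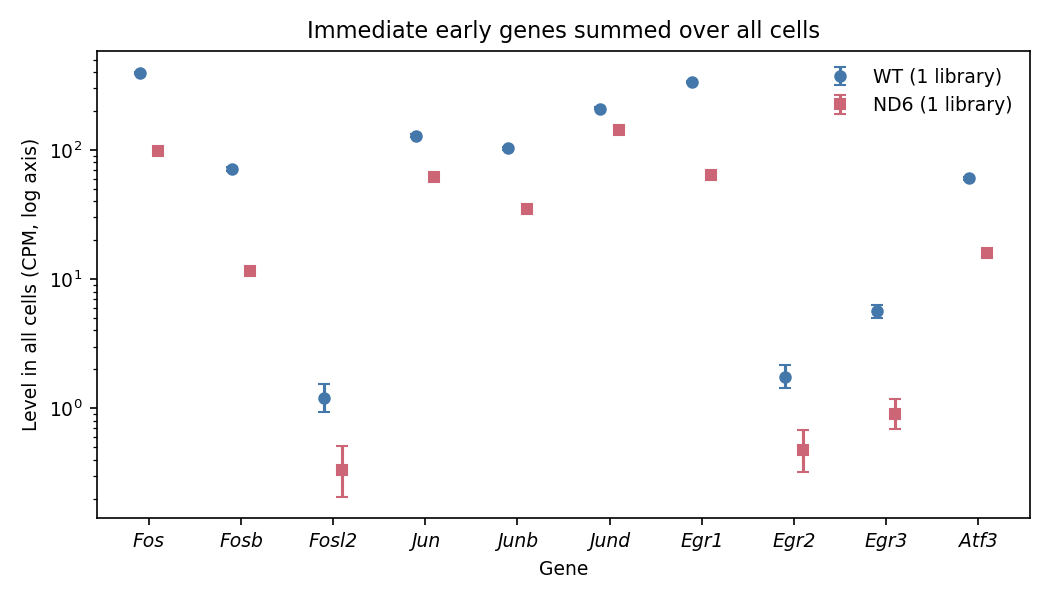
Level of each of the 10 genes over all cells (CPM, log axis) in the WT library (circles) and the mutant library labelled ND6 (squares), with 95% Poisson intervals that cover counting error. Every gene lies lower in the mutant library, and the gap is smallest for Jund, at 209 against 143 CPM.

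The make-up of the early gene mRNA thus differed between the libraries. Jund held 16.0% (15.7 to 16.2) of the 10 genes' UMIs in WT and 33.3% (32.8 to 33.9) in the mutant library. Egr1 held 25.7% (25.3 to 26.0) in WT and 14.9% (14.4 to 15.3) in the mutant library, and Fos 30.1% (29.8 to 30.4) and 22.6% (22.1 to 23.1).

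Each of the 10 genes was at its highest level in the microglia-like class in both libraries, which was so for 8.57% of the 15888 genes (13.4% in WT and 14.6% in the mutant library taken singly). For Fosl2 in the mutant library this rests on 3 of its 21 UMIs (8.40 CPM). RPE-like cells held 6 of them (3.48 CPM) and amacrine-like cells 5 (2.72 CPM). Summed, the 10 genes reached 14938 CPM in the 269 WT microglia-like cells and 7430 CPM in the 154 mutant ones. The Müller-like class, the glia that span the retina, came next, with 5981 CPM in 34 WT cells and 1412 CPM in 92 mutant cells, whose median depth also differed (9872 and 1638 UMIs). None of these UMIs were found in 1 of the 34 WT and 50 of the 92 mutant Müller-like cells, and the tenth of cells with the most of them held 37.9% in WT and 89.3% in the mutant library. In WT the order went on with cone-like cells at 1780 CPM, amacrine-like at 1488, bipolar-like at 913, rod-like at 835 and RPE-like at 563 CPM. In the mutant library amacrine-like cells (654 CPM) stood before bipolar-like (469), cone-like (438), rod-like (338) and RPE-like cells (230 CPM). Below the microglia- and Müller-like classes, cone-like cells thus stood first in WT and in the third place in the mutant library. The intervals of bipolar-like (448 to 491 CPM) and cone-like cells (428 to 449 CPM) of the mutant library touched, and no other neighbours in either order had overlapping intervals. There is no spread over mice to set these orders against. The intervals also take each UMI as a separate count, yet the UMIs gathered in few cells. The tenth of cells with the most of them held 70.7% in WT bipolar-like, 72.4% in WT rod-like and 47.0% in WT amacrine-like cells. The intervals do not cover that spread between cells, so a lack of overlap does not settle the orders.

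The level of single genes followed that order with exceptions. Fos was at 2099 CPM in WT and 1199 CPM in mutant microglia-like cells, 1757 and 341 CPM in Müller-like, 632 and 158 CPM in amacrine-like, and 627 and 118 CPM in cone-like cells. It was at 279 and 75.3 CPM in rod-like, 264 and 80.4 CPM in bipolar-like, and 151 and 46.4 CPM in RPE-like cells. Thus its level was lower in the mutant library in each of the 7 classes. Egr1 went from 2338 CPM in WT and 1123 CPM in mutant microglia-like cells, through 1015 CPM in WT Müller-like cells, 5.05-fold above mutant ones, 614 and 82.2 CPM in cone-like, 398 and 117 CPM in amacrine-like, 256 and 72.4 CPM in bipolar-like and 207 and 40.4 CPM in rod-like, to 148 and 24.4 CPM in RPE-like cells. Atf3, in contrast, was lowest in amacrine-like cells, with 3 WT and 11 mutant UMIs.

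**Figure D2:**
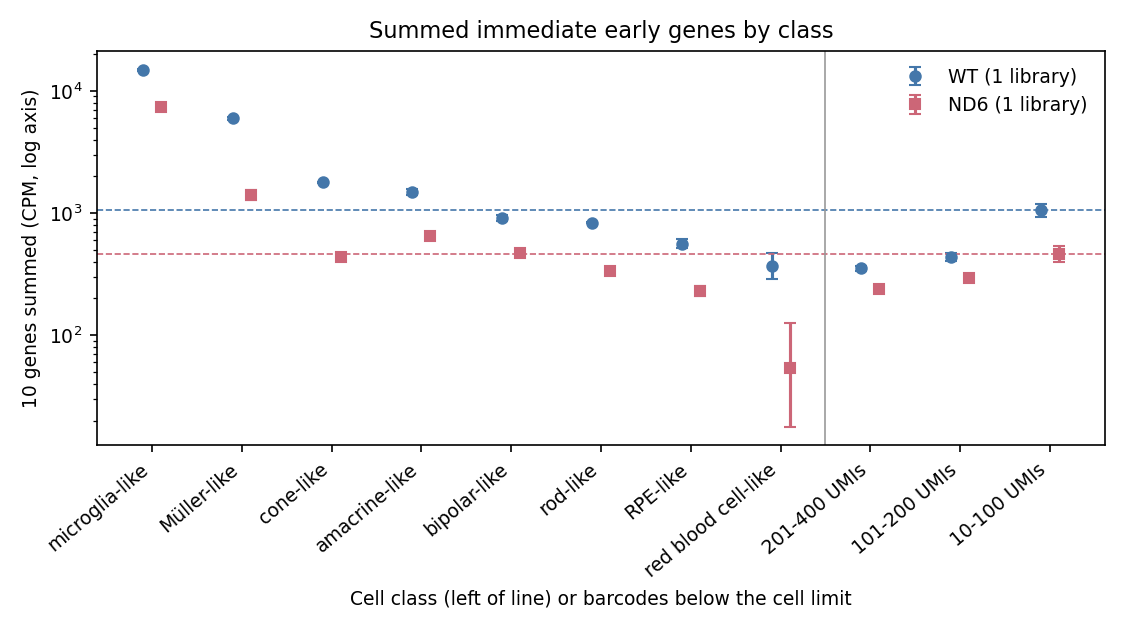
Summed level of the 10 genes (CPM, log axis) by class and in barcodes below the cell limit, in the WT (circles) and mutant (squares) libraries, with 95% Poisson intervals. Dashed lines mark each library's level in barcodes of 10 to 100 UMIs, 1052 CPM in WT and 465 CPM in the mutant library. Rod-, RPE- and red blood cell-like cells lie under their own library's line in both libraries. WT bipolar-like (913 CPM) and mutant cone-like cells (438 CPM) also lie under it.

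Within the classes, 51 of the 70 pairs of a class and a gene had at least 20 UMIs, and 38 of these were called lower and 0 higher in the mutant library. In cone-like cells 7 of 8 such genes were called lower, where 4.28% of all genes were lower and 7.52% higher, and in rod-like cells 5 of 7 (4.73% lower and 14.3% higher). The count was 5 of 7 in bipolar-like cells (3.08% and 7.91%), 3 of 6 in amacrine-like cells (6.55% and 9.38%) and 6 of 7 in Müller-like cells (6.94% and 6.21%). It was 7 of 10 in microglia-like cells (6.06% and 6.40%) and 5 of 6 in RPE-like cells (15.3% and 7.47%). Marker levels moved between the libraries as well. In RPE-like cells the RPE markers summed to 25693 CPM in WT and 56620 CPM in the mutant library, the Müller markers to 6753 and 12676 CPM and the rod markers to 53460 and 37763 CPM. In microglia-like cells the Müller markers were at 2329 and 5432 CPM, and in amacrine-like cells the ganglion cell markers at 1810 and 791 CPM. The part of these shifts in the counts was not tested. A pair that reached 20 UMIs through WT alone had to be lower, so these counts are a description.

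Fos, Fosb, Junb and Egr1 were lower in the mutant library in all 7 classes, a pattern shown by 4.18% of the 15888 genes. The ratio of WT over mutant level was widest in cone-like cells for Egr1 (7.47-fold, 7.03 to 7.94) and for Fosb (7.37-fold, 6.38 to 8.54), with Fos at 5.33-fold (5.06 to 5.62). The cone-like class pooled 3 clusters. The deepest, led by Cckbr and Cnga3, held 145 of 646 WT and 393 of 1154 mutant cells, at median depths of 40661 and 24046 UMIs. In a finer clustering (resolution 2) a cluster with these leading genes stayed unnamed. Rod markers in the class summed to 56093 and 61973 CPM, beside 11040 and 10275 CPM for cone markers. The part of this pooling in the cone-like ratios and order was not tested. In microglia-like cells Fos differed by 1.75-fold (1.58 to 1.95) and Egr1 by 2.08-fold (1.87 to 2.32), whereas Atf3 differed by 8.23-fold (6.26 to 11.0), from 1245 to 151 CPM. Jund differed by 2.75-fold (2.45 to 3.11) in the same cells. Its level in bipolar-like cells, 200 CPM in WT and 211 CPM in the mutant library, was within counting error (0.947-fold, 0.832 to 1.08). Jun in amacrine-like cells, with 38 WT and 123 mutant UMIs, was at 51.3 and 66.8 CPM, a difference also within counting error (0.768-fold, 0.519 to 1.11).

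**Figure D3:**
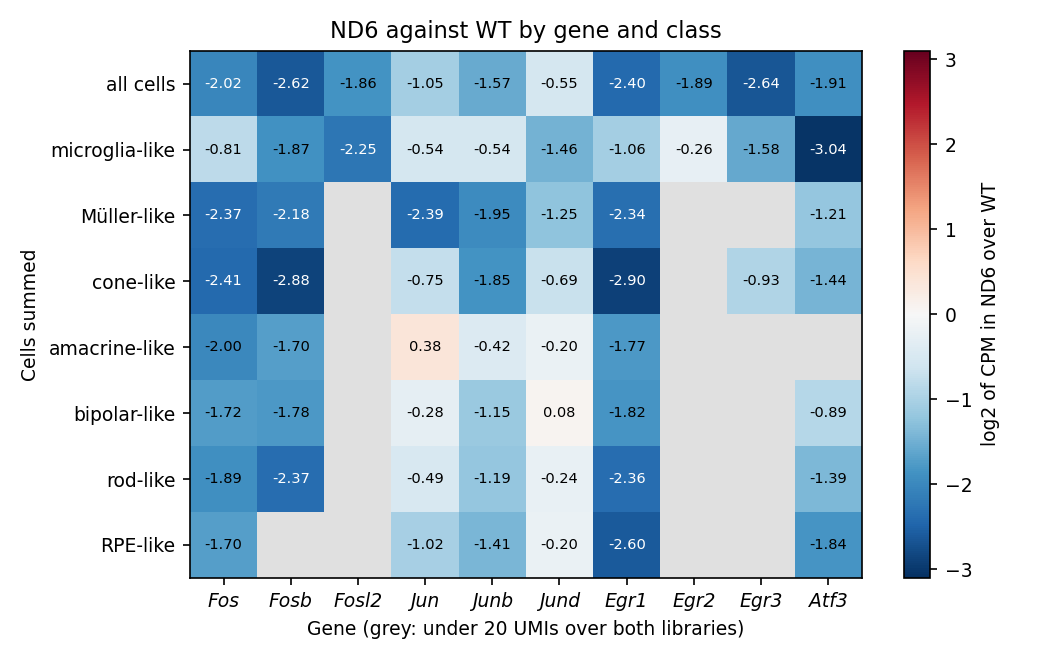
Log2 of the level (CPM) in the mutant library over WT for each gene (columns) over all cells and in each class (rows). Blue marks a lower level in the mutant library and grey marks pairs under 20 UMIs, and Jund is at 0.08 in bipolar-like and -0.20 in amacrine-like cells where Egr1 is at -1.82 and -1.77.

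The microglia-like class was made of 2 clusters that differed in these genes. The cluster led by the chemokine genes Ccl4 and Ccl3 held 48 WT and 27 mutant cells, 0.383% and 0.147% of all cells, and was at 32369 CPM in WT and 18990 CPM in the mutant library for the 10 genes summed. The median WT cell gave 3.34% of its UMIs to the 10 genes (lowest 0.325%, highest 6.61%) and the median mutant cell 2.05% (lowest 0%, highest 3.90%). All 48 WT cells had a UMI of the 10 genes, as did 26 of 27 mutant cells. The other cluster, of 221 WT and 127 mutant cells, was at 1122 and 550 CPM, near the level in barcodes of 10 to 100 UMIs (1052 and 465 CPM). Rod marker genes summed to 53201 CPM in its WT and 53251 CPM in its mutant cells, against 11068 and 8170 CPM in the chemokine cluster, and all 4 T cell markers were detected in it and none in the chemokine cluster.

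The chemokine cluster alone held 17.5% (17.2 to 17.8) of the 10 genes' UMIs in WT cells and 9.33% (8.98 to 9.68) in mutant cells. Its share of the UMIs of all genes was 0.709% in WT cells and 0.212% in mutant cells. Most Egr2 UMIs lay in it, with 80 of 96 UMIs in WT (83.3%, 74.4 to 90.2) and 28 of 30 in the mutant library (93.3%, 77.9 to 99.2). It held 80.2% (75.3 to 84.5) of the Egr3 UMIs in WT and 59.6% (45.8 to 72.4) in the mutant library. The share was smaller for Jun (36.7% and 18.2%), Junb (32.3% and 23.2%), Atf3 (32.5% and 5.08%) and Jund (17.9% and 3.06%), and smallest in WT for Fos (7.70%, against 6.83% in the mutant library). Rod-like cells were 76.4% of WT and 73.1% of mutant cells and gave 62.2% and 54.3% of the UMIs of all genes. They held 44.0% of Fos and 2 of the 96 Egr2 UMIs in WT. In the mutant library they held 42.0% of Fos and 0 of the 30 Egr2 UMIs.

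**Figure D4:**
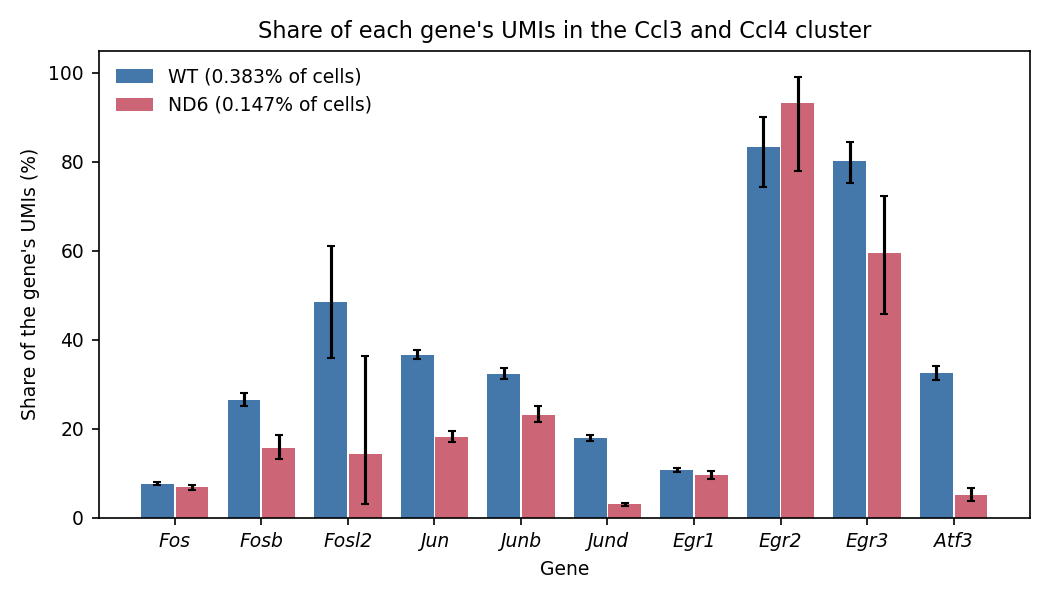
Share of each gene's UMIs in all cells of a library (%) that lay in the microglia-like cluster led by Ccl4 and Ccl3, for WT and the mutant library, with exact 95% binomial intervals. Egr2 and Egr3 lie highest, at 83.3% and 80.2% in WT. The cluster held 0.709% of all UMIs in WT cells and 0.212% in mutant cells, and 0.383% of WT and 0.147% of mutant cells.

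Within the chemokine cluster itself, 6 of the 10 genes were called lower in the mutant library, where 9.85% of genes were lower and 7.08% higher. Atf3 was at 2755 CPM in WT and 383 CPM in the mutant library (7.20-fold, 5.43 to 9.73), and Fosb at 2670 and 864 CPM (3.09-fold, 2.55 to 3.78). Egr2 was at 207 and 210 CPM (0.984-fold, 0.633 to 1.57). Jun, at 6657 and 5346 CPM (1.25-fold, 1.15 to 1.35), and Junb, at 4688 and 3807 CPM (1.23-fold, 1.12 to 1.36), differed by less than 1.5-fold. Marker levels also differed between the libraries within the cluster, with the 10 microglia markers summing to 29176 CPM in WT and 44189 CPM in the mutant library, the 10 Müller cell markers to 2595 and 9844 CPM and the 7 amacrine markers to 7.76 and 195 CPM (3 and 26 UMIs). Their part in the differences was not tested. Without this cluster, the 10 genes summed to 1091 CPM in WT and 391 CPM in the mutant library (2.79-fold, 2.75 to 2.83), and 9 of them were again called lower, beside 4.21% of all genes (16.9% were higher).

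RNA free in the cell suspension enters every droplet, so the levels were set beside those in barcodes of 10 to 100 UMIs. These were 7324 of the 1553114 barcodes with a UMI in WT and 8621 of 1428687 in the mutant library. The 10 genes summed to 1052 CPM (238 UMIs) there in WT and 465 CPM (181 UMIs) in the mutant library, a 2.26-fold difference (1.86 to 2.76) in the direction seen in the cells. Of the 5 genes with at least 20 UMIs there, 4 were called lower in the mutant library, where 3.37% of genes were lower and 12.9% higher. Jun was the exception, with 19 UMIs in WT (84.0 CPM) and 48 in the mutant library (123 CPM), within counting error of each other (0.681-fold, 0.378 to 1.18). In barcodes of 1 to 9 UMIs (values in a later section), Fos and Egr1 were lower in the mutant library by a smaller factor than in the cells. Jun was higher there in the mutant library. The difference between the libraries thus depends on the barcodes taken.

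As a whole class, rod-like cells lay below this background in their summed level, with a log2 ratio of cells over background of -0.33 (-0.52 to -0.14) in WT and -0.46 (-0.67 to -0.24) in the mutant library. The rod-like cluster richest in Malat1 (below), led by March1, stood above it, at 1552 and 791 CPM. That cluster had 3 of 9 rod markers raised and no rod marker among its leading 10 genes. RPE-like cells also lay below the background, at -0.90 in WT and -1.01 in the mutant library. So did WT bipolar-like cells, at -0.21 (-0.40 to -0.0025). Mutant bipolar-like (0.01, -0.21 to 0.24) and mutant cone-like cells (-0.09, -0.30 to 0.14) were within counting error of the background. In WT cone-like cells Fos (log2 ratio 0.98, 0.64 to 1.33) and Egr1 (1.66, 1.23 to 2.12) exceeded it, and in mutant cone-like cells Egr1 did (0.68, 0.04 to 1.39) and Fos did not (-0.13, -0.53 to 0.31). The same held in amacrine-like cells, with Fos at 0.99 (0.63 to 1.37) and Egr1 at 1.03 (0.57 to 1.52) in WT. In mutant amacrine-like cells Egr1 was at 1.18 (0.52 to 1.92) and Fos, not called, at 0.30 (-0.14 to 0.76). Fos was called below the background in mutant rod- (-0.77), bipolar- (-0.68) and RPE-like cells (-1.47). Jun was called below it in mutant cone- (-1.15), amacrine- (-0.88), bipolar- (-1.23), rod- (-1.40) and RPE-like cells (-2.15). In mutant Müller- (0.75) and microglia-like cells (4.06) Jun was called above it. Microglia-like cells stood above it by 3.83 (3.64 to 4.02) in WT and by 3.78 to 4.22 in the mutant library for the summed genes, and Müller-like cells by 2.51 (2.32 to 2.70) and 1.60 (1.35 to 1.86). Of all genes tested, 5.35% of 14361 in WT and 3.04% of 14920 in the mutant library were called higher in cells than in this background, and 3.11% and 8.37% lower. Barcodes of over 100 and up to 200 UMIs gave 437 CPM in WT and 293 CPM in the mutant library, so the background level itself depends on the barcodes taken, and rod-like cells, at 835 and 338 CPM, stood above these.

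A UMI of any of the 10 genes was found in 50.7% (49.8 to 51.6) of WT cells and 38.2% (37.4 to 38.9) of mutant cells. With each cell thinned to 400 UMIs, which left out no cell, the shares were 18.5% (17.8 to 19.2) and 10.6% (10.2 to 11.1). In thinned cone-like cells they were 45.4% (41.5 to 49.3) in WT and 14.2% (12.2 to 16.4) in the mutant library. In thinned red blood cell-like cells, which have no nucleus, they were 14.8% (7.90 to 24.4) of 81 WT cells and 1 of 20 mutant cells (interval 0.127% to 24.9%), of median depth 1455 and 4338 UMIs. The thinned shares of rod-like cells, 16.2% in WT and 9.73% in the mutant library at median depths of 1745 and 1328 UMIs, lay inside those intervals. With 81 and 20 red blood cell-like cells the intervals are wide, so the shares alone do not tell rod-like cells from background. In summed level, red blood cell-like cells were at 369 CPM in WT and, from few UMIs, at 54.1 CPM in the mutant library. Rod-like cells were at 835 and 338 CPM. Haemoglobin genes led the red blood cell-like cluster. Their UMIs lower the CPM and the thinned shares of all other genes in it, by an amount that was not computed. Its values are thus not like for like with those of rod-like cells.

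In rod- and cone-like cells Egr1 was found more often where Fos was. In thinned WT rod-like cells Egr1 was detected in 21.6% of the 547 cells with Fos and in 2.59% of those without, and in mutant ones in 10.6% of the 264 cells with Fos and 0.705% of those without. In WT cone-like cells the shares were 38.9% and 16.9%, and in mutant cone-like cells 10.9% (5 of 46 cells) and 3.07%. In the chemokine cluster they were 85.7% (30 of 35 cells) and 76.9% in WT, and 53.3% (8 of 15 cells) and 58.3% in the mutant library. The rod-like values pool clusters that differed in their level of these genes (below), and the part of this pooling was not tested.

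Rod-like cells fell into 9 clusters, and the early genes were higher in those rich in Malat1, a nuclear long noncoding RNA that was also left out of the clustering. In the 4 clusters with over 10000 CPM of Malat1 (3633 of 9568 WT and 4063 of 13448 mutant rod-like cells), the 10 genes summed to between 536 and 1552 CPM in WT and between 271 and 791 CPM in the mutant library. In the other 5 clusters they summed to between 192 and 286 CPM in WT and between 161 and 198 CPM in the mutant library. The ranges of the 2 kinds of cluster did not overlap within a library. The Malat1-rich clusters also had lower mtDNA shares, 5.65% to 9.81% in WT against 13.0% to 13.6%, and 3 of the 4 were the deepest of the 9 in both libraries. The summed level was lower in the mutant library in 9 of 9 clusters, with log2 ratios from -1.12 to -0.09, each nearer to 0 than the -1.30 of the whole rod-like class. Within the clusters the interval held 0 in 2 of the 9, at -0.22 (-0.46 to 0.02) and -0.09 (-0.53 to 0.35). Fos was lower in 9 of 9 clusters, with log2 ratios from -2.36 to -0.85, as was Egr1, from -2.78 to -1.75. Jun was higher in the mutant library in 3 of the 9, with log2 ratios from -0.56 to 0.33. Jund was higher in 6 of the 9, with log2 ratios from -0.41 to 0.69, although it was lower over rod-like cells as a whole (152 against 128 CPM). The libraries thus differed in the shares of Malat1-rich and Malat1-poor rod-like cells, and the part of these shares in the rod-like ratios was not tested beyond these within-cluster values.

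**Figure D5:**
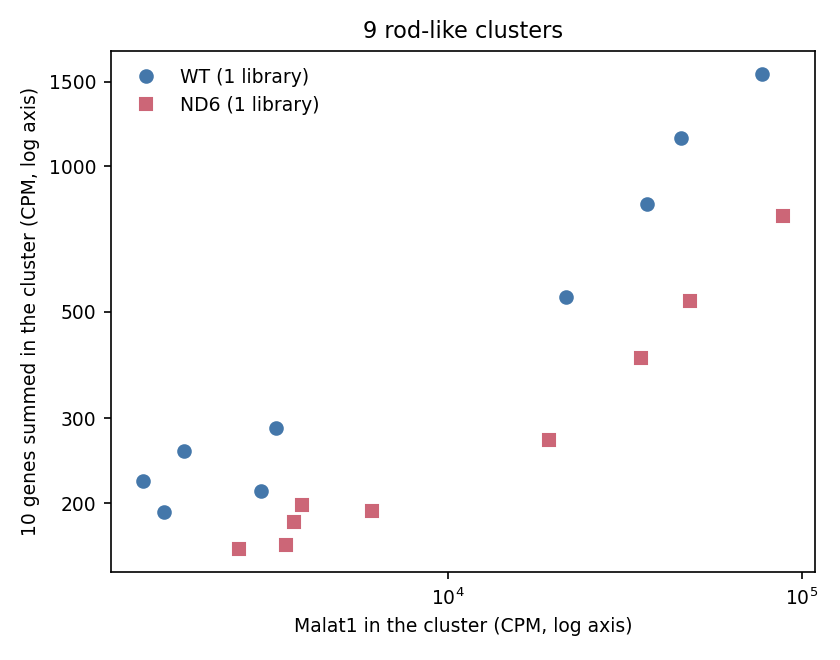
Summed level of the 10 genes against that of Malat1 (both in CPM, log axes) in each of the 9 rod-like clusters, with 1 point per cluster and library. The 4 clusters over 10000 CPM of Malat1 lie above the other 5 in each library, and WT points reach 1552 CPM where mutant points reach 791 CPM.

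The mRNAs of listed kinases and factors that switch these genes on differed by less than 1.5-fold. The activity of the proteins was not measured. Of 16 such genes, 0 were called in either direction over all cells (median log2 ratio -0.10, range -0.53 to 0.54). Among 11 feedback inhibitors of the same pathways, 6 were called lower in the mutant library and 0 higher, beside 5.78% and 16.1% of all genes. Dusp1, a phosphatase that turns MAP kinases off, was at 44.8 CPM in WT and 21.2 CPM in the mutant library, and Zfp36, which destabilizes early mRNA, at 18.4 and 8.47 CPM. Its relative Zfp36l1 was at 14.8 and 8.29 CPM, the phosphatase genes Dusp6 and Dusp2 at 6.90 and 3.72 CPM and at 1.36 and 0.238 CPM, and the inhibitor Spry1 at 1.21 and 0.699 CPM.

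Of 14 other early genes, 8 were called lower and 0 higher, beside the same 5.78% and 16.1% of all genes, which also stand beside the counts of the lists that follow. Klf4, a zinc finger factor, showed a 7.45-fold difference (13.5 and 1.81 CPM), its relatives Klf2 a 3.78-fold (17.1 and 4.53 CPM) and Klf6 a 2.03-fold difference (28.0 and 13.8 CPM). Ier5 was at 23.5 and 8.23 CPM, Ier2 at 76.7 and 35.2 CPM, and the nuclear receptor gene Nr4a1 at 15.2 and 7.93 CPM. Btg2 (215 and 206 CPM) and Ier3 (135 and 103 CPM), which had the most UMIs of this list, were not called. Of 9 measured AP-1 partners and relatives, 5 were called lower and 1 higher. Atf4, the effector of the integrated stress response, was at 495 CPM in WT and 265 CPM in the mutant library, and the small Maf gene Maff at 1.38 and 0.175 CPM. Batf, Batf3 and Jdp2 were called lower from levels of at most 1.30 CPM in WT, and Mafg was called higher, at 35.2 and 54.3 CPM. Of 3 measured Egr relatives and co-repressors, Egr4 alone was called, as higher, with 7 UMIs in WT and 21 in the mutant library.

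Heat shock genes, which are induced by a partly separate stress pathway, were also lower, with 7 of 8 called lower and 0 higher in the mutant library. The chaperone gene Hspa1b was at 68.7 CPM in WT and 19.0 CPM in the mutant library, Hspa1a at 121 and 71.2 CPM, and their constitutive relative Hspa8 at 1028 and 504 CPM. The co-chaperone gene Dnajb1 was at 65.9 and 33.5 CPM, Hsph1 at 73.0 and 32.8 CPM, and Hspa5, of the endoplasmic reticulum, at 355 and 177 CPM. The part of a general stress response in the levels of the 10 genes was not tested. Of 4 nuclear RNAs, Meg3 was called higher in the mutant library (72.8 and 292 CPM) and Malat1 differed by 1.17-fold (31482 and 26934 CPM).

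Over the 7 classes in both libraries (14 points, which share libraries and depth), the genes whose log2(CPM + 1) was most like that of the summed 10 genes, of 10217 compared, were Ier2 (Pearson's r = 0.972), Dusp1 (0.966), Qk (0.951), Tsc22d2 (0.949) and Ripk1 (0.934). Each was highest in microglia-like cells in both libraries. Of these 5, Ier2 and Dusp1 were on the lists above.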

How the data were processed

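Retinal cells were profiled with the 10x Genomics Chromium 3' assay in 1 WT and 1 ND6 library. Per the labels and the study's methods, the authors aligned reads to mm10 with Cell Ranger (version 3.0.2 in the submitters' processing notes) and deposited raw UMI counts per gene and barcode for all barcodes (77958836 UMIs in WT, 80358255 in the mutant library). They then regressed technical and stress-related scores, dissociation stress among them, out of values not used here, and that step was not repeated.

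Cells were taken by the study's limits. The paper reports more cells than these limits left in the libraries used here, and it shows cell fractions for each mouse. After log-normalization, 3000 variable genes, scaled library by library, gave 30 principal components, which with 20 neighbours entered Leiden clustering at resolution 1 (scanpy 1.11.5, leidenalg 0.10.2). The 10 genes, the gene lists and mtDNA-encoded genes were left out. A cluster of at least 20 cells took the class with the highest mean log2 fold of its markers (3 UMIs added to observed and expected counts). It needed at least 3 markers and at least 1 in 2 of the class's markers raised 2-fold, and a lead of 0.5 over the next class. No other class could have more markers among its leading 10 genes. Remaining clusters were named rod-like by at least 3 raised rod markers against the named clusters other than cones, without the limit of 1 in 2. A shallow cluster with no marker of its class among those 10 genes was left unnamed. This rule was settled after the clusters were seen, and 3 forms of it were run. The Malat1-rich rod-like clusters led by March1 (3 of 9 rod markers raised) and by Ahr had no rod marker among their leading 10 genes. A cluster led by Nefl and Glul and a pigment cell cluster stayed unnamed. In the amacrine-like cluster 8 of 8 ganglion cell markers were also raised, and in the RPE-like cluster 4 of 4 melanocyte markers. No doublet caller was run, and the cone-like class holds a cluster of median 28251 UMIs.

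The genes and lists were chosen with earlier results of these data known. The text names the 10 genes, list genes past 1.5-fold (at most 6 per list, those with the most UMIs), and the 5 genes most like the summed 10. It also names Btg2, Ier3 and Malat1, which were not called. The definition of a call in the count of class and gene pairs was set to include the interval after values had been seen. The list gene Cyr61 is Ccn1 in the files. Intervals of counts are exact Poisson, of shares Clopper-Pearson, and of ratios exact conditional, all at 95% (scipy 1.17.1). They do not cover the spread between mice or between cells. The ratio and its call were tested on simulated counts. These were independent Poisson draws with no spread between cells or mice, so that test says nothing of such spread. Alternatives were the limits on UMIs and mtDNA-encoded UMIs, scaling, per-cell means, thinning to 400 UMIs, clustering settings, other free RNA barcodes, and UMI minimums. One more, without the Ccl4 and Ccl3 cluster, was chosen after seeing the data.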

Additional observations from a re-analysis of the deposited data

Results flagged for a closer look

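These 3 results appeared in barcodes that enter no comparison between cells, and each ran against the direction seen in the cells, with a level in the mutant library above that in WT. In barcodes of 1 to 9 UMIs, Jun was at 126 CPM in WT (280 UMIs) and 238 CPM in the mutant library (520 UMIs), a log2 ratio of 0.92 (0.70 to 1.13). In the same barcodes Fos was at 339 and 274 CPM and Egr1 at 202 and 82.0 CPM, so Jun moved apart from them. In barcodes of over 100 and up to 200 UMIs, Jun was at 26.0 CPM in WT (44 UMIs) and 52.0 CPM in the mutant library (339 UMIs), a log2 ratio of 1.00 (0.54 to 1.49). In barcodes left out for over 20% mtDNA-encoded UMIs, Fosl2 was at 0.933 CPM in WT (12 UMIs) and 2.78 CPM in the mutant library (13 UMIs), a log2 ratio of 1.58 (0.33 to 2.84) that rests on few UMIs. What set these values was not tested.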

How the results depend on the processing

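No paired analysis was possible because each genotype has 1 library, and for the same reason no replicate could be left out and no p-value or spread between mice can be given. In all, 112 values were recomputed under 773 combinations of value and setting, of which 583 stayed within counting error or within 1.5 times for a count, 186 moved further without changing direction where called, and 4 reversed. The log2 ratio of the summed 10 genes, -1.61, was -1.43 without the limit on mtDNA-encoded UMIs, -1.26 as a mean of per-cell CPM, -1.24 in cells thinned to 400 UMIs and -1.48 without the Ccl4 and Ccl3 cluster. Between 6 (thinned) and 9 of the 10 genes were called lower, and 0 higher, under every setting run. The 38 class and gene pairs called lower became 25 after thinning, which leaves fewer UMIs, and between 32 and 40 under the other settings. No RPE-like class was named at resolution 0.5 or with genes scaled over both libraries. With that scaling 9 of the 10 genes, in place of 10, were highest in WT microglia-like cells. The log2 ratio of cells over free RNA, 0.32 in WT and -0.11 in the mutant library, was 0.09 in WT without the mtDNA limit. It was 1.59 and 0.56 against barcodes of over 100 to 200 UMIs, and 1.89 and 0.84 against those of over 200 to 400 UMIs. For Jun in the mutant library that ratio, -0.99, turned to 0.26 and 0.81 against the same 2 sets of barcodes. The share of cells with a UMI, 50.7% in WT and 38.2% in the mutant library, was 37.8% and 34.7% without the mtDNA limit, 55.1% and 44.6% in cells of at least 1000 UMIs, and 18.5% and 10.6% after thinning. After thinning, the log2 ratio of Egr2 over all cells turned to 0.45, from 1 WT and 2 mutant UMIs, and that of Egr3 in microglia-like cells to 0.80, from 10 UMIs in each library. The causes of these shifts were not tested beyond the settings' own construction. Depth limits Fosl2, Egr2 and Egr3 outside microglia-like cells, where most classes held under 20 UMIs. It also limits Fosl2 in mutant microglia-like cells, with 3 UMIs.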

Other observations

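Depth and mtDNA share moved with the rod-like levels. In rod-like cells of up to 1000 UMIs, the 10 genes summed to 374 CPM in WT and 270 CPM in the mutant library, with the log2 ratio at -0.47 (-0.67 to -0.27), and in those over 5000 UMIs to 1052 CPM in WT, with the log2 ratio at -1.39 (-1.43 to -1.35). Jund, at 106 and 121 CPM in the first band, was at 174 and 133 CPM in the last. By mtDNA share, the summed level went from 1111 CPM in WT and 447 CPM in the mutant library at up to 5% mtDNA-encoded UMIs to 508 and 212 CPM at 10 to 20%, and the log2 ratio stayed between -1.53 and -1.26 over the 3 bands. In the barcodes removed for more than 20% mtDNA-encoded UMIs it was -0.47 (-0.57 to -0.37), from 303 and 219 CPM.

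Of the clusters outside the 7 classes, the pigment cell and red blood cell-like ones held little of these mRNAs. In the pigment cell cluster, of 98 WT and 5 mutant cells, the 10 genes summed to 108 CPM in WT (103 UMIs, of which 46 were Jund) and to 2 UMIs in the mutant library. In red blood cell-like cells they summed to 369 CPM in WT (67 UMIs) and 54.1 CPM in the mutant library (5 UMIs). The cluster led by Nefl and Glul, of 1264 WT and 1612 mutant cells, was at 1006 and 439 CPM, close to its library's level in barcodes of 10 to 100 UMIs.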
